A study of Mus musculus with 24 samples.

Results

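Potassium channel genes, here the protein-coding genes whose symbol starts with Kcn, were followed through chronic social defeat stress (CSDS) in the mouse lateral septum. Kcnj13 was left out beforehand as a choroid plexus gene. Of 28859 genes in the count table, 93 met this description, and the 75 with a mean of at least 1 CPM (counts scaled to a common library total) over 24 libraries were kept. The rule uses no comparison between groups. Just inside the threshold were Kcnmb2 at 1.44, Kcnk4 at 1.47 and Kcns3 at 1.53 CPM. Just outside were Kcne4 at 0.661, Kcnk5 at 0.628 and Kcnj14 at 0.624 CPM. All 75 genes passed the filter on low counts and stood among 18060 genes tested. The libraries came from wild-type C57BL/6J males aged 8 to 14 weeks, taken after 1, 4, 7 or 10 days of CSDS or held as age-matched unstressed controls. In CSDS a mouse meets an aggressive CD-1 male for 10 min a day and is kept behind a barrier from it otherwise. There were 12 CSDS and 12 control libraries, 3 for each day and treatment. By its title the series concerns MANF and the endoplasmic reticulum. No label says that each library is a separate animal, so the p-values measure the spread between libraries.

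Potassium channels let potassium leave the cell and so set the resting potential, repolarise the action potential and space spikes in time. Voltage-gated channels open on depolarisation, two-pore channels carry leak current, inward rectifiers hold the membrane near rest or answer G-protein-coupled receptors, and calcium- or sodium-activated channels make the afterhyperpolarisation. In the lateral septum, a forebrain region made mostly of GABAergic neurons, such channels shape how neurons answer hippocampal input, and glial inward rectifiers take up potassium released by active neurons.

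The family is recognised by the selectivity filter, in which glycine, tyrosine or phenylalanine, and glycine follow each other. A search of coding sequences (GENCODE M21) looked for the glycine codon, a tyrosine or phenylalanine codon and a second glycine codon in frame, after codons for threonine or serine and for valine, isoleucine or leucine. It found this arrangement in 62 of 63 pore-forming genes and in 0 of 12 auxiliary genes, against 158 of 21484 coding sequences of all genes, or 0.735%. Kcnk1, a weakly conducting two-pore channel, was the exception. The residue in the middle was tyrosine in 42 genes, phenylalanine in 16, and 4 two-pore genes held a copy with each. Of 9 two-pore genes, 7 held the arrangement in both pore loops. The stretches below, 36 coding bases each with the 9 signature bases in capitals, belong to genes on which the later comparisons turn, and they show the phenylalanine form in Kcnh7 and Kcnt2 beside the tyrosine form in the others.
Kcnh7: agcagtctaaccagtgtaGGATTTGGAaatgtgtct
Kcnt2: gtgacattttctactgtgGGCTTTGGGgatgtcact
Kcna4: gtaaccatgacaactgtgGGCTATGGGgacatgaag
Kcnb2: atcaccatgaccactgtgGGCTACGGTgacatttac
Kcng4: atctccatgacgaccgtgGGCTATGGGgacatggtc
Kcnv1: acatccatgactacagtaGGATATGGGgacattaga
Kcnj9: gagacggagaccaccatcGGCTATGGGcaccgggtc
These genes lie on chromosome 2 (Kcnh7 and Kcna4), 1 (Kcnt2, Kcnb2 and Kcnj9), 15 (Kcnv1) and 8 (Kcng4). The G-protein-gated rectifier Kcnj9 carries a histidine codon after the signature, where Kcna4, Kcnb2, Kcng4 and Kcnv1 carry one for aspartate.

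Total counts ran from 31182747 to 41205354 per library. Septal markers were present throughout, with Zic1 between 364 and 664, Trpc4 between 80.4 and 158 and Crhr2 between 7.55 and 17.3 CPM. Markers of neighbouring tissue were mixed. Cux2 of the cortex list lay between 24.38 and 36.75 and Drd2 of the striatum list between 36.97 and 68.85 CPM, but others varied far more. Slc17a7, a cortical and hippocampal marker, lay between 15.9 and 524 CPM and Ttr, the leading choroid plexus gene, between 5.01 and 8945 CPM. Each tissue is summarised by a score, the mean log2 CPM over its markers. All 16 choroid plexus, 14 cortex or hippocampus and 13 striatum markers were measured, and none is a potassium channel gene. Control replicate 1 of day 10 stood apart. It had the lowest total, gave 6.03% of its counts to the single gene LOC118568312 and 0.359% to the 75 channel genes, against 0.436% to 0.498% in the other libraries. In bulk tissue, fewer cells of a type and less RNA per cell cannot be told apart.

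Levels were compared between genes as FPKM, the deposited value scaled for gene length and library total. Among the most abundant were the glial inward rectifier Kcnj10 at 45.7 ± 5.29 FPKM (SD, n = 24) and Kcnip2, a calcium-binding partner of Kv4 channels, at 45.0 ± 6.17 FPKM. The ranges of both overlapped, from 36.2 to 60.6 and from 33.9 to 57.1 FPKM. The beta subunits Kcnab1 (29.6 ± 2.52) and Kcnab2 (24.6 ± 3.75), the Kv1 genes Kcna1 (23.7 ± 2.45) and Kcna6 (19.4 ± 1.62), the silent subunit Kcnf1 (21.5 ± 3.96), Kcnip1 (17.2 ± 2.01) and Kcna2 (15.5 ± 1.95 FPKM) followed.

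Taken by role, inward rectifiers held 16.6% of the summed FPKM of the 75 genes. Kv4 channels with their Kcnip partners held 15.0%, other auxiliary subunits 11.7%, the Kv1 group 11.3% and the Kv7 group 10.4%. Below these came Kv2 with the silent subunits at 9.52%, calcium- or sodium-activated channels at 8.34%, two-pore channels at 6.53%, Kv3 at 5.63% and the Kcnh group at 4.93%. This order rests on the gene lengths behind FPKM: per kilobase of the longest coding transcript, inward rectifiers held 17.6% and Kv4 with Kcnip 17.7% of the summed CPM, and the Kv7 group 7.51%. Within the Kv2 group the silent subunit Kcnf1 exceeded the silent Kcng1 (9.33 ± 1.87 FPKM). Of Kv3, Kcnc1 stood at 15.1 and Kcnc4 at 5.29 FPKM, and of Kv7, Kcnq3 stood at 8.28 and Kcnq5 at 4.14 FPKM. Kcnh2 (11.0), Kcnh1 (8.14) and Kcnh3 (5.82 FPKM) led the Kcnh group. The large-conductance channel Kcnma1 (12.4), the sodium-activated Kcnt1 (12.1) and the small-conductance Kcnn3 (9.24 FPKM) led the activated channels. After Kcnj10, the G-protein-gated Kcnj9 (11.4) and Kcnj3 (9.49 FPKM) had the highest FPKM of the rectifiers. Per kilobase of the longest transcript, Kcnj6 at 30.4, Kcnj4 at 21.4 and Kcnj3 at 20.3 CPM stood above Kcnj9 at 11.5 CPM. By FPKM the two-pore genes were led by Kcnk1 (12.6), Kcnk2 (11.7) and Kcnk9 (5.80 FPKM). Kcnip3 reached 12.2 FPKM.

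**Figure D1:**
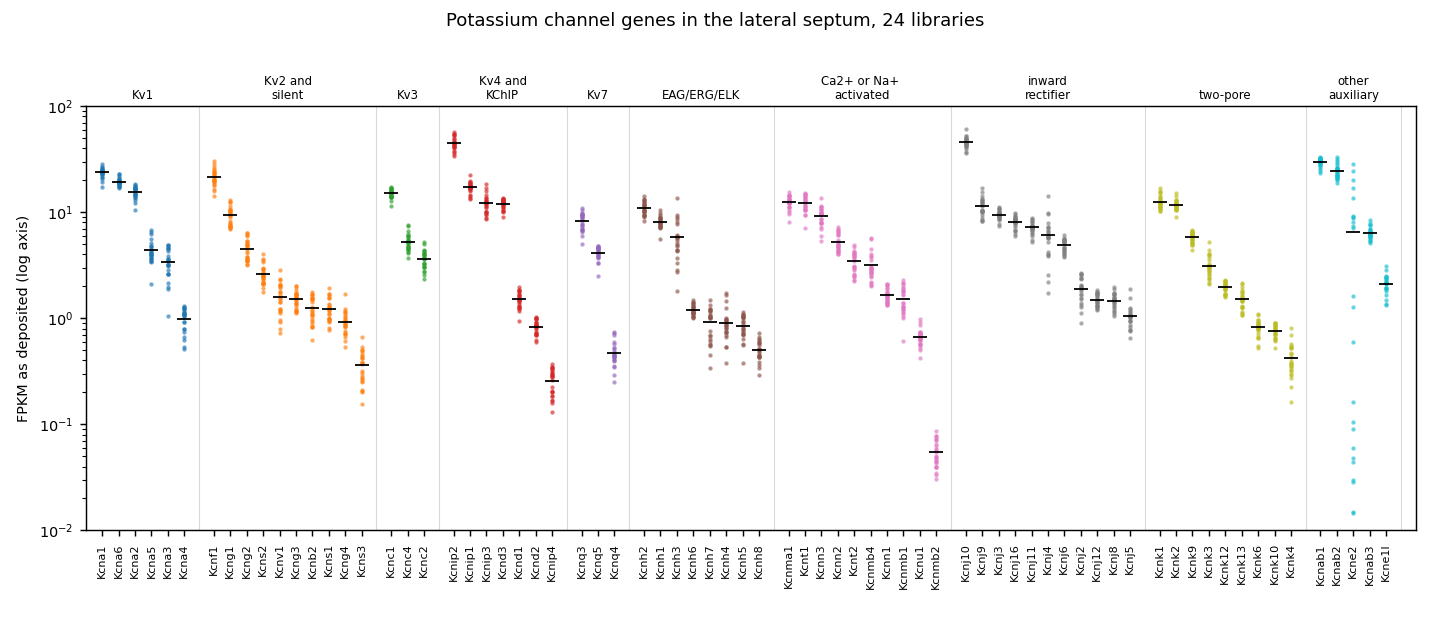
FPKM of 72 of the genes (log axis) in each of 24 libraries (points) with the mean (dash), grouped by role. Kcnj10 and Kcnip2 stand highest of those drawn, and Kcne2 spreads from 0.0146 to 28.3 FPKM while most genes stay within a narrow band.

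Some low FPKM values rest on the gene length that the authors divided by. That length exceeded the longest coding transcript of GENCODE M21 by more than 2 times in 22 genes and by more than 5 times in 6. For Kcnip4 the implied length was 164.77 kb against a longest transcript of 2.39 kb, and for the Kv4 channel Kcnd2 it was 98.28 kb against 5.15 kb. Both had many reads, 42.6 and 81.7 CPM on average, yet ranked 74 and 66 of 75 by FPKM. Per kilobase of the longest transcript they ranked 21 and 23, and Kcnab2 ranked 1. The edgeR comparisons between groups use counts and not this length. Whether the counts hold reads from the whole implied length was not tested. If they do, values per kilobase of the longest transcript are too high for such genes, and those reads enter the comparisons too. Kcna4 and Kcnj6, with implied lengths 6.99 and 6.2 times the longest transcript, are also concerned.

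Within a day and treatment, most channel genes varied little. Small standard deviations of log2 CPM, among genes with at least 5 CPM, belonged to Kcna6 (0.0816), Kcnk12 (0.102), Kcnab1 (0.103) and Kcnj12 (0.11). The largest belonged to Kcne2 (2.51), Kcnj4 (0.654), Kcnh3 (0.576), Kcnv1 (0.449) and Kcnmb4 (0.322).

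The first question was whether CSDS changed these genes on any day. By edgeR's quasi-likelihood test with Benjamini-Hochberg adjustment over all genes, 0 of 75 passed an adjusted p of 0.05 in any of the 4 daily comparisons. The background was low too: the share of all genes tested that passed was 0.00554% on day 1 and again on day 7, 0.111% on day 4 and 0.166% at the end. With the unadjusted p under 0.05 instead, 11, 5, 1 and 12 channel genes stood out in the order of the days, where the shares of all genes were 7.88%, 8.33%, 4.28% and 12.8%. With 1 library of the day left out they ranged from 3 (without control replicate 3) to 17 (without control replicate 1) on day 1, from 3 to 9 on day 4, from 1 to 5 on day 7 and from 5 (without control replicate 1) to 15 on day 10. With marker scores of neighbouring tissue as covariates they were 3, 6, 2 and 10. The shares of all genes in these refits are not given here. The shifts therefore cannot be read as particular to the channel genes. DESeq2 and limma on log2 FPKM also called 0 on each day. The median standard error of a daily log2 difference over the 75 genes was 0.149.

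On day 1, 25 genes lay above 0 and the median log2 difference was -0.09, with 48% of all genes above 0 and a median over all genes of -0.01. The lowest p belonged to Kcnh7, which forms a channel of the ERG type, known to limit repeated firing. Kcnh7 had 22.2, 23.5 and 20.3 CPM in CSDS libraries and 24.8, 34.3 and 39.3 CPM in controls. The 3 CSDS values lay below the 3 control values, and the log2 difference was -0.58 (SE 0.152, adjusted p = 0.361). Kcnmb4, the beta subunit of neuronal large-conductance channels, had 15.8, 22.6 and 16.2 CPM under CSDS and 20.5, 32.4 and 31.1 CPM in controls, and here the groups overlapped. Its exons overlap transcripts of the opposite strand, Kcnmb4os1 and Kcnmb4os2. Its difference of -0.62 (SE 0.238) had an adjusted p of 0.592. The silent subunit Kcns1 (-0.44), the rectifier Kcnj9 (-0.39) and the fast Kv3 gene Kcnc4 (-0.33) were the other 3 with the smallest p below 0. Above 0 these were Kcnh2, the ERG channel best known from the heart (0.23), Kcnip2 (0.24), Kcnn2 (0.21), Kcnip1 (0.13) and Kcne2 (4.07, SE 2.15).

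The groups did not overlap in 5 channel genes on day 1, and 11.6% of all genes did not overlap. Among them was Kcnip2, with 158.6, 172.0 and 163.6 CPM in CSDS libraries and 152.0, 147.7 and 118.9 CPM in controls. Tissue markers moved with the day: the cortex score was lower by 0.752 and the choroid plexus score higher by 1.65 in CSDS than in control libraries. With the cortex, striatum and choroid plexus scores as covariates the log2 difference was -0.37 for Kcnh7, -0.19 for Kcnmb4, -0.12 for Kcnj9, -0.11 for Kcnc4 and -0.39 for Kcns1. Above 0, Kcnh2 then had 0.04, Kcnip2 0.17, Kcnn2 0.31 and Kcnip1 0.10. Kcne2 then had -0.67, the opposite sign. It had 47.4, 0.0774 and 2.17 CPM in the 3 CSDS libraries and 2.79, 0.106 and 0.0264 CPM in the 3 controls, so that 1 CSDS library carried most of its mean.

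On day 4, 50 genes lay above 0, with 50.4% of all genes above 0, and the median was 0.03. The 11 inward rectifiers, singled out after their values were seen, all lay above 0, between 0.02 and 0.25. So did all 4 Kv3 genes and all 4 Kv7 genes. Of the rectifiers, 1 had an unadjusted p under 0.05. That gene was Kcnj6, a G-protein-gated rectifier, with 137.0, 122.5 and 117.1 CPM in CSDS libraries and 102.9, 122.6 and 99.4 CPM in controls. Its groups overlapped, and its difference was 0.21 (SE 0.0965, adjusted p = 0.564). The two-pore genes were mixed. Kcnk9, an acid-sensitive leak channel, had 103.2, 106.9 and 102.4 CPM under CSDS and 85.9, 98.2 and 87.7 CPM in controls, without overlap, and a difference of 0.20 (SE 0.0911, adjusted p = 0.564). Kcnk12 had 14.6, 13.7 and 14.2 CPM under CSDS and 17.6, 17.4 and 16.1 CPM in controls, again without overlap, and a difference of -0.27 (SE 0.0936, adjusted p = 0.418).

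The smallest p on day 4 belonged to Kcng4, a silent subunit that forms channels only together with Kv2. Kcng4 had 3.93, 3.21 and 2.87 CPM in CSDS libraries and 5.99, 4.57 and 4.44 CPM in controls. All 3 CSDS values were lower, and the difference was -0.58 (SE 0.194, adjusted p = 0.393). Other genes with small p were Kcnk4 (0.63), Kcnk10 (0.24) and Kcnh7 (0.25) above 0 and Kcnk1 (-0.24), Kcns1 (-0.34) and Kcnh2 (-0.16) below 0. With the scores as covariates Kcnh7 had 0.13 and Kcnh2 -0.08. The groups did not overlap in 9 channel genes, beside 15.6% of all genes.

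On day 7, 24 genes lay above 0, with 50.8% of all genes above 0, and the median was -0.09. Kcnj9 was the 1 channel gene with an unadjusted p under 0.05. It had 39.3, 31.6 and 32.4 CPM in CSDS libraries and 53.1, 39.4 and 39.5 CPM in controls. The 3 CSDS values lay below the controls, the highest of them narrowly, and the difference was -0.36 (SE 0.156, adjusted p = 0.999). The cortex score was lower by 0.694 in CSDS libraries on this day, and with the scores as covariates the difference of Kcnj9 was -0.10 and that of Kcnf1 -0.04, where it was -0.28 without them. Kcnip3 (-0.28), Kcnk12 (-0.17) and Kcns2 (-0.33) were the other genes with the smallest p below 0, and with the scores Kcnip3 had -0.03, Kcnk12 -0.15 and Kcns2 -0.20. Above 0 were Kcnmb1, a large-conductance subunit of smooth muscle (0.45), Kcng3 (0.24), Kcnu1 (0.27), Kcnb2 (0.18) and Kcnt1 (0.14). The groups did not overlap in 4 channel genes, beside 9.83% of all genes.

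On day 10, 59 genes lay above 0, with 53.7% of all genes above 0, and the median was 0.12. Without the control library that stood apart, 45 lay above 0 and the median was 0.03, and the share of all genes is not given here. The smallest p belonged to Kcnj12, a classical strong rectifier. Kcnj12 had 15.0, 15.9 and 14.1 CPM in CSDS libraries and 11.4, 12.5 and 12.2 CPM in controls. Every CSDS value exceeded every control value, and the difference was 0.32 (SE 0.102, adjusted p = 0.226), or 0.27 without control replicate 1. Kcnh7 had 22.5, 19.7 and 19.7 CPM under CSDS and 12.3, 18.3 and 15.4 CPM in controls. Its groups did not overlap either, and its difference of 0.42 (SE 0.155, adjusted p = 0.277) was 0.29 without that library. Kcng4 had 4.68, 4.77 and 5.21 CPM under CSDS and 6.91, 5.62 and 8.99 CPM in controls. The 3 CSDS values were the lower ones, with a difference of -0.55 (SE 0.19, adjusted p = 0.256) and -0.59 without that library.

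Further genes with small p on day 10 were Kcnc4 (0.34), the acid-sensitive leak channel Kcnk3 (0.36) and Kcns1 (0.39) above 0. Below 0 they were Kcnj8, a subunit of vascular ATP-sensitive channels (-0.36), Kcnip2 (-0.21), the microglial leak channel Kcnk13 (-0.29) and Kcnj2 (-0.38). Without control replicate 1 the differences were 0.23 for Kcnc4, 0.32 for Kcnk3, 0.28 for Kcns1, -0.35 for Kcnj8, -0.27 for Kcnip2, -0.24 for Kcnk13 and -0.54 for Kcnj2. The choroid plexus score was lower by 2.52 in CSDS than in control libraries on this day, and its part in these differences was tested only as a covariate. With the 3 scores as covariates Kcnj12 stood at 0.25, Kcnh7 at 0.31 and Kcng4 at -0.62. Kcnj2 moved to -0.12 and Kcnj8 to -0.54, while Kcnc4 had 0.24, Kcnk3 0.25, Kcns1 0.37, Kcnip2 -0.21 and Kcnk13 -0.29. The groups did not overlap in 8 channel genes, beside 15.6% of all genes.

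**Figure D2:**
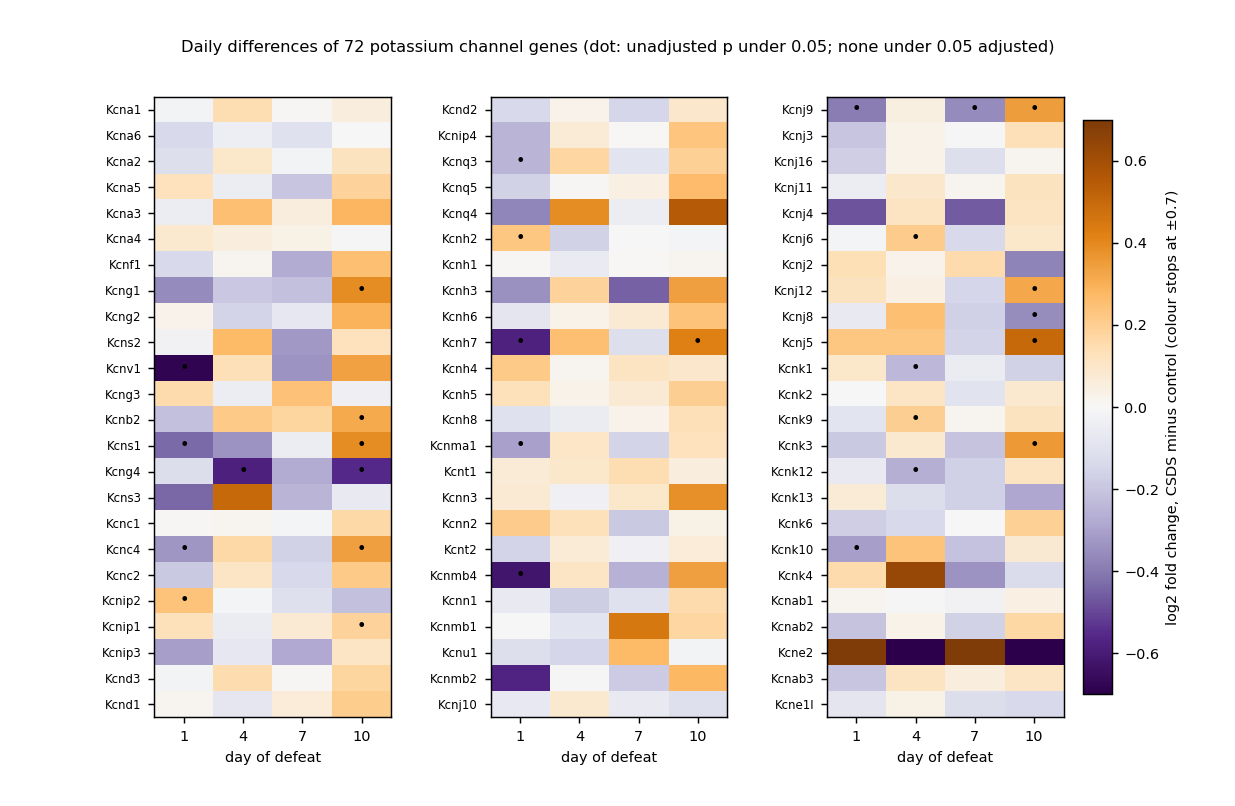
Log2 fold change, CSDS minus control, for 72 of the genes (down the page, by role) on days 1, 4, 7 and 10 (across). Brown is higher and purple lower in CSDS libraries, colours stop at ±0.7, and a dot marks an unadjusted p under 0.05: 11, 5, 1 and 12 genes on the 4 days.

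Averaged over the 4 days, 0 of 75 channel genes passed in edgeR, where 0.116% of all genes did, and 2 had an unadjusted p under 0.05, beside 6.47% of all genes. The smallest p was that of Kcng4, which was below 0 on each of the 4 days, at -0.12, -0.58, -0.27 and -0.55. Its average difference was -0.38 (SE 0.0958, adjusted p = 0.217). DESeq2 gave the same size, -0.38, and an adjusted p of 0.0471 for this gene. The share of all genes that DESeq2 called for this average is not given here. With the 3 marker scores as covariates the edgeR value was -0.43 and the adjusted p 0.0508. Kcna6 was the other gene below 0 on all 4 days, with an average of -0.07 (SE 0.034, adjusted p = 0.769). Kcnh4, Kcnh5 and Kcnt1, chosen after their values were seen, lay above 0 on all 4. Of 75 genes, 2 were thus below and 3 above 0 throughout. The share of all genes with 4 like signs is not given here, so such signs are no result about these genes. The remaining genes named by smallest p were Kcnip1 (0.08), Kcnj5 (0.20), Kcnb2 (0.12), Kcnj12 (0.08) and Kcnd3 (0.08) above 0, and Kcnk12 (-0.10), Kcnip3 (-0.14) and Kcnk13 (-0.13) below 0. With the scores Kcnip1 had 0.05, Kcnd3 0.05 and Kcnip3 -0.07.

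An F test then asked whether the daily responses differ from each other. Of 75 genes, 0 passed in edgeR, beside 0.0221% of all genes, and 12 had an unadjusted p under 0.05, beside 11% of all genes. Kcnh7 had the smallest p, with daily differences of -0.58, 0.25, -0.11 and 0.42 and an adjusted p of 0.158. DESeq2 gave an adjusted p of 0.00604 for it, and called 1.26% of all genes in this test. Over the settings and left-out libraries tried, the adjusted p of Kcnh7 lay between 0.00604 and 0.392. Kcnj9 (adjusted p = 0.292), Kcns1 (0.303), Kcnc4 (0.317) and Kcnj12 (0.411) followed. Kcnh7, Kcnj9, Kcns1 and Kcnc4 had a negative difference on day 1 and a positive one on day 10, as did 43 of the 75 genes. The share of all genes with these signs is not given here, so this count is no result about the family. On day 10, 59 channel genes lay above 0, beside 53.7% of all genes, and 45 without control replicate 1, where that share is not given.

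**Figure D3:**
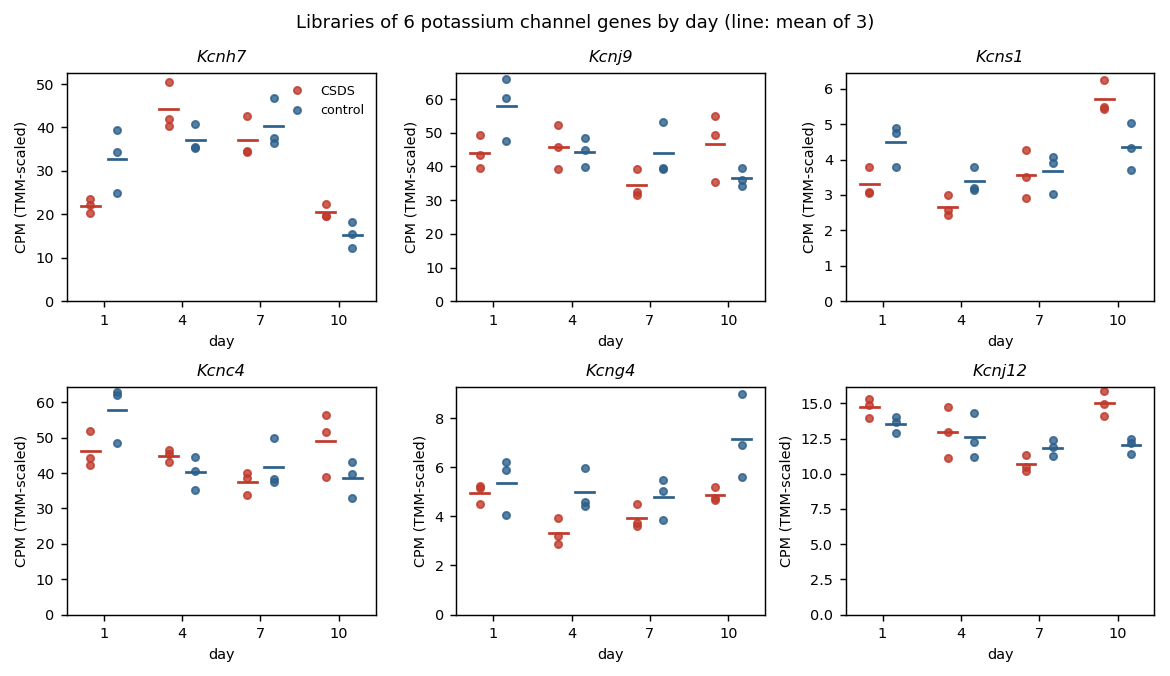
CPM per library (points) and the mean of 3 (line) for Kcnh7, Kcnj9, Kcns1, Kcnc4, Kcng4 and Kcnj12 on each day, CSDS in red on the left and control in blue on the right. In CSDS libraries Kcnh7 lies below the controls on day 1 and above them on day 10, and Kcng4 has a lower mean on each of the 4 days.

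Many more genes passed between days than between treatments, in tests that use more libraries. F tests across the 4 days passed for 39 channel genes (52%) among CSDS libraries and 33 (44%) among control libraries, where 47.9% and 40.7% of all genes passed. The share among channel genes was thus near that of the genome, and 24 of them (32%) passed in both arms, beside 32.1% of all genes. Day of collection, age and any batch shared by a day's libraries cannot be told apart in this design, and the pattern was not tested against any of them.

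The clearest day pattern, chosen after the values were seen, set days 4 and 7 apart from days 1 and 10. The contrast of these pairs passed for 37 channel genes among CSDS libraries (40.3% of all genes), 20 higher (18.6% of all genes) and 17 lower (21.7%) on days 4 and 7. Among controls it passed for 22 (31.3% of all genes), 15 higher (14.6%) and 7 lower (16.7%). The sign was shared by both arms, which share no library, in 68 of 75 channel genes and 14778 of 18060 genes. Higher on days 4 and 7 in both arms were 13 channel genes, or 17.3% beside 12.5% of all genes. They were Kcna2, Kcna3, Kcna4 and their subunit Kcnab1, Kcnb2, Kcnc2, the Kv4 gene Kcnd2 with Kcnip4, Kcnq3, Kcnh5, Kcnh7, Kcnj6 and Kcnt2. Lower in both were 6, or 8% beside 14.2% of all genes: Kcnab2, Kcne1l, Kcng2, Kcns1, Kcnh2 and Kcnk13.

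Among the genes that passed in both arms, Kcnh7 had the largest difference in each arm. Its CSDS libraries had 22.2, 23.5 and 20.3 CPM on day 1, 50.6, 40.4 and 41.9 CPM on day 4, 42.7, 34.6 and 34.3 CPM on day 7, and 22.5, 19.7 and 19.7 CPM on day 10. Its control libraries had 24.8, 34.3 and 39.3 CPM, then 35.5, 40.8 and 35.2 CPM, then 46.8, 37.5 and 36.4 CPM, and 12.3, 18.3 and 15.4 CPM on day 10. In both arms the day 10 libraries were lower than every library of days 4 and 7, and the F tests had adjusted p of 6.18e-06 among CSDS and 3.77e-06 among control libraries. The days 4 and 7 minus days 1 and 10 difference of Kcnh7 was 0.93 (SE 0.108) in CSDS and 0.78 (SE 0.108) in controls. Its exons overlap those of Gca on the other strand, and the use of strand in counting is not given in the sources used here.

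Kcnt2, a sodium-activated channel, had 21.1, 25.6 and 24.8, 41.7, 34.7 and 32.1, 33.7, 36.1 and 33.2, and 24.7, 19.3 and 21.3 CPM on the successive days of CSDS. Control libraries had 28.5, 26.5 and 24.6, 30.5, 40.8 and 32.2, 35.8, 33.9 and 35.6, and 20.3, 20.9 and 21.5 CPM. Days 4 and 7 lay above days 1 and 10 in every library of both arms, with differences of 0.63 (SE 0.0788) in CSDS and 0.56 (SE 0.0787) in controls. Kcnb2, a delayed rectifier, did the same, with 0.77 (SE 0.0997) and 0.62 (SE 0.0999). Kcnip4 differed by 0.73 and 0.69, with some overlap between days among its control libraries. The A-type channel Kcna4 was low on day 10, at 22.8, 17.3 and 25.5 CPM in CSDS and 18.9, 20.4 and 26.4 CPM in control libraries. The earlier CSDS libraries all lay above these, at 30.1 to 43.7 CPM, while 1 earlier control library, at 25.8 CPM, overlapped. Kcnq3, a subunit of M-channels, was higher by 0.48 in CSDS and 0.41 in controls, and Kcna3 by 0.70 and 0.67, Kcnd2 by 0.28 and 0.32, and Kcnj6 by 0.21 and 0.22.

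Among genes lower on days 4 and 7, the silent subunit Kcng2 differed by -0.63 in CSDS and -0.36 in controls and Kcnh2 by -0.39 and -0.20. Kcnh2 and Kcnh7, which are both of the ERG type, thus moved in opposite directions. The silent Kcns1 differed by -0.50 and -0.33 and the leak channel Kcnk13 by -0.37 and -0.34. Kcnk3 passed both F tests without passing this contrast in controls, at -0.41 in CSDS and -0.26 in controls.

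The length of the genes differed with the day pattern. By the longest coding transcript, the median was 5.05 kb over the 13 higher genes, 2.95 kb over the 6 lower ones and 3.92 kb over all 75. By the length implied in the deposited FPKM, which is far larger for some of these genes, it was 15.1, 4.10 and 5.99 kb. By the implied length over all genes tested, the medians were 6.69 kb for those higher in both arms, 2.63 kb for those lower and 3.63 kb overall. The share of mitochondrial counts moved with the days as well. On days 1 and 10 it was 3.87% to 4.54% and 4.14% to 4.48% in CSDS and 4.19% to 4.92% and 3.28% to 4.37% in control libraries. On days 4 and 7 it was 6.12% to 6.81% and 6.49% to 7.66% in CSDS and 6.30% to 6.72% and 6.43% to 7.07% in control libraries. The part of either in the day differences was not tested.

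**Figure D4:**
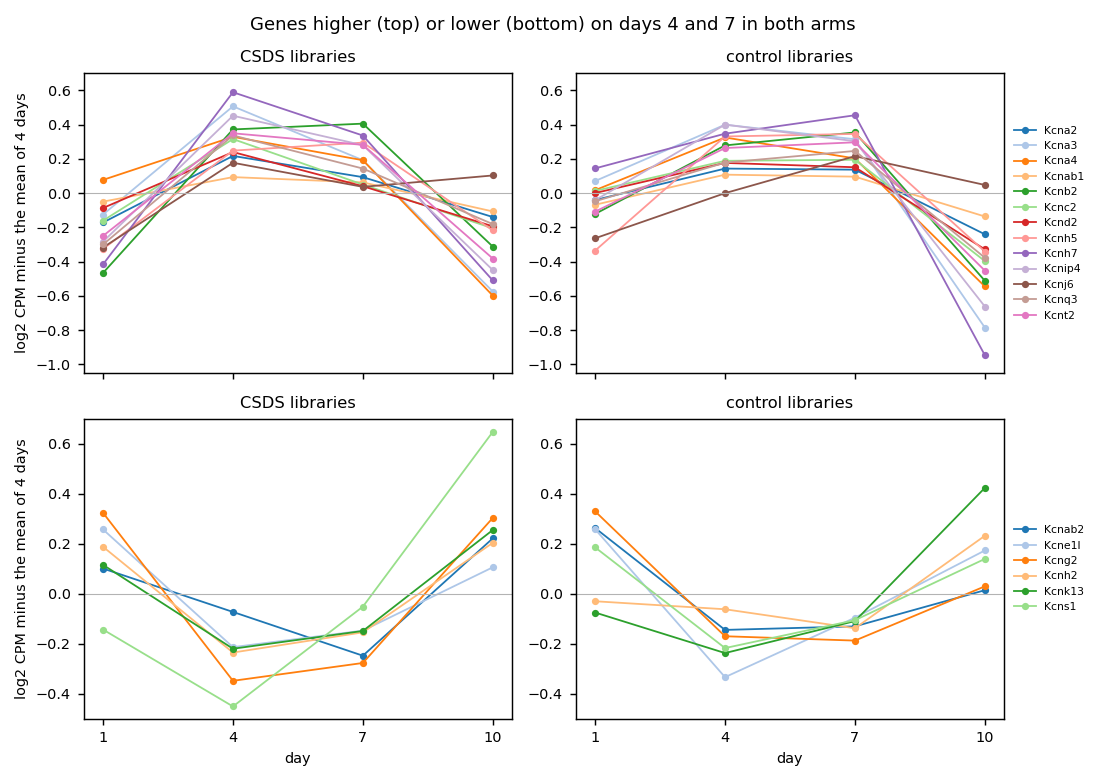
Mean log2 CPM of 3 libraries per day, relative to the mean of the 4 days, for the 13 genes higher (top) and the 6 lower (bottom) on days 4 and 7 in both arms, CSDS left and control right. Kcnh7 is lowest on day 10 in controls, and the levels of most genes follow a like course in both arms.

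Libraries of a group also differed in their tissue makeup, and slopes of log2 CPM on each marker score within groups show which channel genes moved with it. On the cortex or hippocampus score 9 genes passed, all with positive slopes, beside 2.36% of all genes, 2.13% with positive and 0.233% with negative slopes. Kcnv1, a silent subunit of the Kv2 group, had a slope of 0.83 log2 units per unit of score (SE 0.0778, adjusted p = 6.54e-07). On day 1, where the cortex score lay between 2.35 and 3.73 in CSDS and 3.49 and 4.16 in control libraries, Kcnv1 had 21.4, 26.3 and 13.4 CPM under CSDS and 20.6, 42.8 and 34.7 CPM in controls. The strong rectifier Kcnj4 had the steepest slope, 0.98 (SE 0.174), and ranged from 13.9 to 108.6 CPM. Kcnh3 (0.81) and Kcnmb4 (0.52) followed. Kcng1 (0.35), Kcnj9 (0.31), Kcnip3 (0.31), Kcnf1 (0.28) and Kcnc4 (0.25) had shallower slopes, and Kcnc4 is named here after its values were seen. Kcnmb4, Kcnj9, Kcnf1 and Kcnc4 are among the genes whose daily differences shrank with the scores as covariates. The call of Kcnj9 was lost without CSDS replicate 3 of day 10, that of Kcnh3 without that library or CSDS replicate 3 of day 1, and that of Kcnf1 without CSDS replicate 2 or 3 of day 1.

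On the striatum score 9 genes again passed, all with positive slopes, beside 1.46% of all genes, 1.3% with positive and 0.161% with negative slopes. Kcna5 had a slope of 0.73 (SE 0.0774, adjusted p = 4.28e-06). It shares a cluster on chromosome 6 with Kcna1 and Kcna6, and of these neighbours only Kcna5 passed. Kcnh4 (0.85), Kcnj2 (0.60), Kcna4 (0.44), Kcnq5 (0.39), Kcnq3 (0.32) and the mechanosensitive leak channel Kcnk2 (0.26) also passed. Kcnh1 (0.34) is named outside the rule for named genes, after its values were seen. Kcnq3 and Kcnq5 belong to the Kv7 group, all 4 of whose members had positive slopes. So did all 4 Kv3 genes and 57 of the 75 channel genes. The median slope was 0.13 over the 75 genes and -0.01 over all genes. Without control replicate 1 of day 10, 6 genes passed, and Kcnq5 was among those that did not. Kcnk2 was lost without control replicate 2 of day 1.

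The choroid plexus score gave a different picture. Here 68 of 75 slopes were negative, where 55.3% of all genes had negative slopes, and 8 genes passed, beside 9.29% of all genes. Of these 2 had positive slopes (6.13% of all genes) and 6 negative ones (3.16%). Kcne2, an auxiliary subunit known from the choroid plexus epithelium, had a slope of 1.75 (SE 0.0771, adjusted p = 9.74e-14). Its libraries ran from 0.0516 to 47.4 CPM in CSDS and from 0.0262 to 45.9 CPM in controls. Kcnk1 had a slope of 0.06 (SE 0.0136). Kcnc1, Kcnip1, Kcnd3 and Kcng3 had negative slopes of -0.06, -0.04, -0.05 and -0.08. Leaving out single libraries gave between 3 and 12 genes that passed, the fewest without CSDS replicate 2 of day 10 and the most without CSDS replicate 2 or 3 of day 4. Kcne2 and Kcnc1 passed in each of these 24 runs, and Kcnk1 in all but the run without CSDS replicate 1 of day 1. Kcnip1 passed in 11, Kcnd3 in 8 and Kcng3 in 4 of them.

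**Figure D5:**
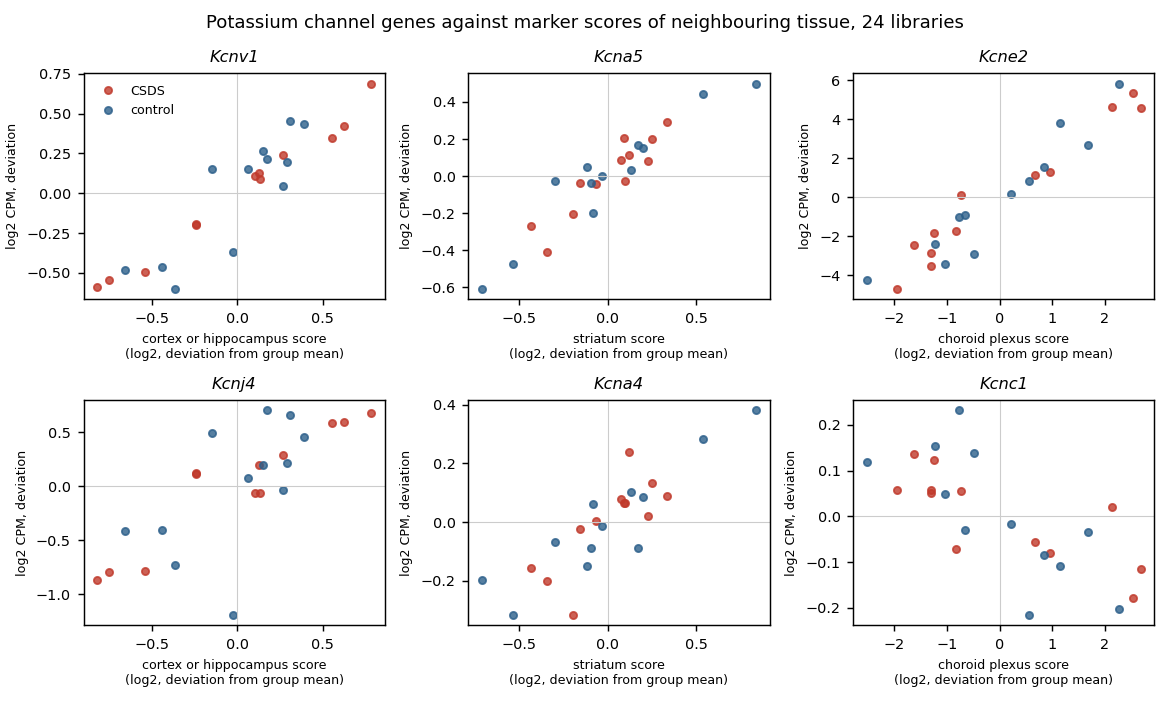
Deviation of log2 CPM from the group mean against the deviation of the marker score, for 24 libraries, CSDS in red and control in blue. Kcnv1 and Kcnj4 climb with the cortex score, Kcna5 and Kcna4 with the striatum score and Kcne2 with the choroid plexus score, while Kcnc1 declines along the last.

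The median daily difference of the 75 genes had the opposite sign to the choroid plexus score difference, and the same sign as the cortex score difference, on each of the 4 days. The choroid plexus score was higher in CSDS than in control libraries by 1.65 on day 1 and 1.33 on day 7, when 25 and 24 genes lay above 0. It was lower by 1.21 on day 4 and 2.52 on day 10, when 50 and 59 genes did. The cortex score was lower in CSDS libraries by 0.752 on day 1 and 0.694 on day 7 and higher by 0.34 on day 4 and 0.144 on day 10. For the striatum score the differences were 0.393, -0.0531, -0.0189 and -0.427 on days 1, 4, 7 and 10. Their sign was that of the median on day 7 only. These matches of sign were not tested. With the 3 scores as covariates the counts were 22, 35, 40 and 57 on days 1, 4, 7 and 10. The shares of all genes above 0 in that refit are not given here, so these counts are no result about the family.

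Genes of potassium handling outside the Kcn symbols, such as HCN channels, channel-anchoring proteins, sodium pumps and potassium-chloride cotransporters, were listed for comparison, and 44 of 46 were tested. None of the 44 passed on any day (0 at each), over the 4 days or in the test of differing responses, and at an unadjusted p under 0.05 stood 0, 1, 0 and 7 on days 1, 4, 7 and 10. By day, 23 differed among CSDS and 22 among control libraries, beside 47.9% and 40.7% of all genes. The contrast of days 4 and 7 with days 1 and 10 called 13 higher and 13 lower in CSDS (18.6% and 21.7% of all genes). In controls it called 12 higher and 3 lower (14.6% and 16.7% of all genes). Of the genes that differed by day, a few are given here. Akap9, a scaffold that holds Kv7 channels with kinases, had the smallest p and was higher on days 4 and 7 by 0.65 in CSDS and 0.66 in controls. Akap5, a second anchor of Kv7 channels, was higher by 0.52 and 0.47. Of the channel-localising proteins, Ank3 was higher by 0.37 and 0.34 and Cntnap2 by 0.25 and 0.30. Hcn2, a pacemaker channel, was lower, at -0.45 and -0.28. Also lower in both arms were Lgi4, at -0.36 and -0.32, and Adam11, at -0.25 and -0.19. On the choroid plexus score 20 passed, beside 9.29% of all genes, 5 with positive slopes, among them Slc12a7 at 0.22 and Slc12a2 at 0.21. On the cortex and striatum scores 0 passed, with 6 and 9 at an unadjusted p under 0.05.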

How the data were processed

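Per the labels' protocols, poly(A) RNA of lateral septum tissue was made into directional libraries and sequenced as paired reads of 150 bp. Tools named in the submitters' processing notes are HTSeq, HISAT2 and fastp (versions not given), and the build is GRCm39. The authors deposited whole-number read counts per gene and FPKM per gene for 24 libraries. Checked on the files, FPKM is the count over the total of its column and over 1 gene length.

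Counts were fitted in R 4.3.3 with edgeR 4.0.16: filterByExpr by group, TMM scaling, quasi-likelihood on 8 group means with 16 residual degrees of freedom. Contrasts were CSDS minus control per day and averaged over 4 days. F tests asked whether the response differed between days and whether days differed within CSDS or control libraries. Slopes were fitted on each marker score, the mean over a list of log2(CPM + 0.5), beside the group means. P-values of differences and slopes were two-sided, and all were adjusted over the 18060 genes tested. CPM values for groups are TMM-scaled, and the threshold of 1 CPM used column totals. Total counts per library ran from 31182747 to 41205354. The median standard error was 0.149 for a daily log2 difference of a channel gene. Alternatives were RLE scaling, DESeq2 1.42.0, no or a stricter filter, the replicate number as a block, limma 3.58.1 on log2(FPKM + 1) or (FPKM + 0.1), the 3 marker scores as covariates, libraries of a day alone and each library left out in turn. The procedures were tested on simulated data.

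Coding stretches and transcript lengths came from GENCODE M21 on GRCm38 and were matched by symbol, for 75 of 75 genes. No coordinates are given, since the deposited files use another build. Gene order came from RefSeq on GRCm38.p6.

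Named genes are, per CSDS comparison, the 5 with the smallest p in each direction (or all called), per F test up to 10 called genes or the 5 smallest p, per score up to 8 called per direction, and for levels the highest 10 and the highest 3 of each role. Groups come from the condition given in the labels. Members, lists and rules were chosen with earlier results of these data known. A few genes that the rule covers are counted in the totals but not reported singly here.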

Additional observations from a re-analysis of the deposited data

How the results depend on the processing

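The counts of channel genes called per day were 0 under every alternative and with each library left out. For the mean of 4 days DESeq2 called Kcng4 and for the differing response Kcnh7, where the other alternatives called 0. These are calls of single genes and not a result about the family. Slopes on the choroid plexus score passed for 8 genes, 5 with the replicate block and 14 with the 3 scores in one model. With each library left out, 3 to 12 passed on this score, 6 to 9 on the cortex score and 6 to 11 on the striatum score. The genes above 0 on day 7 were 24, and 40 with the 3 scores as covariates. Left-out libraries gave 20 to 34 on day 1, 37 to 54 on day 4, 15 to 28 on day 7 (15 without control replicate 3) and 45 to 63 on day 10. The shares of all genes above 0 in these refits are not given here. Day F tests passed for 23 to 33 genes in controls and 30 to 40 in CSDS, and the contrast of days 4 and 7 for 16 to 24 and 29 to 41. That contrast and the counts above 0 were added after the data were seen. The median on day 4 was -0.01 with the scores as covariates. Kcne2 on day 1 reversed to -0.667 with the scores, and the uncalled striatum slope of Kcnmb1 to 0.0347 without control replicate 2 of day 1 (-0.461 to 0.0347 with each library left out). Of the named values under all alternatives, 2226 kept direction and side of the threshold, 84 lost the call and 4 gained it. The cause of these changes was not tested. Whether replicate numbers pair the libraries cannot be settled by correlations within groups of 3. Above 0.1 were 4 of 12 same-numbered pairs, and the lowest was -0.551. On day 1 these pairs stood at 0.186, 0.259 and 0.145, and on days 4 and 7 all were negative. Of the counts of channel genes called, the block moved only that of the choroid plexus slopes by over 1.5 times. With the block, channel genes at an unadjusted p under 0.05 were 2 on day 7, 1 for the mean of 4 days and 8 for the differing response. The shares of all genes beside these counts are not given here. On day 10, 9 of all genes were called with the block, where 30 were without it. Depth limits statements on genes near 1 CPM.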
